A study of Mus musculus with 52 samples.

Results

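Transcripts of 10 genes of the endoplasmic reticulum (ER) stress and amino acid response were followed in mouse liver after a single dose of each of 8 chemicals. The 10 genes were taken by name as a set covering this response. The table holds 22626 probe sets other than the maker's controls, for 12393 genes with a symbol of their own, and 24 of these probe sets, named by a single symbol in the array annotation, belong to the 10 genes. In 23 of the 24 the signal was above a floor (a log2 signal of 5.02, the 30th percentile of all values) in at least 4 of 52 arrays, and every gene kept at least 1 such probe set. A gene is given by its brightest kept probe set unless another is named, and signals are on the log2 scale after each array was scaled to a common median.

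When unfolded proteins build up in the ER, sensor proteins in its membrane start the unfolded protein response. The sensors IRE1 and ATF6 act through the transcription factors XBP1 and ATF6 and raise the chaperones that fold proteins in the ER lumen, while the kinase PERK slows protein synthesis and favours translation of the transcription factor ATF4. ATF4 is also made when the kinase GCN2 senses a lack of amino acids, so that genes under ATF4 can respond without the chaperones. Hepatocytes secrete most plasma proteins and hold a large ER.

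The mice were 9-week-old B6C3F1 males, injected intraperitoneally. Among the genotoxic chemicals, the alkylating agents were ENU (ethylnitrosourea, given at 150 mg/kg), DMN (dimethylnitrosamine, given at 5 mg/kg) and DPN (dipropylnitrosamine, given at 250 mg/kg), and the aromatic mutagens were AAT (o-aminoazotoluene, given at 300 mg/kg), DMBA (7,12-dimethylbenzanthracene, given at 20 mg/kg) and DBP (dibenzo[a,l]pyrene, given at 6 mg/kg). EtOH (ethanol, given at 1000 mg/kg) and PB (phenobarbital, given at 30 mg/kg) made up the non-genotoxic chemicals. Livers were taken at 4 h, 20 h, 14 days and 28 days, with 1 array of RNA pooled from 5 mice for each chemical and time. The controls were given olive oil (1 array per time, shared by AAT, DMBA and DBP) or saline (4 arrays per time, 1 each for ENU, DMN and DPN and 1 shared by EtOH and PB). Each treated array with the control of its set and time gives a log2 ratio to the own control. A pool averages its mice, so the spread between mice was not measured, and p-values below rest on the spread between the 4 saline arrays of a time or between the chemicals of a class.

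Short motifs known from both arms of the response were looked for in the promoters of the set. The 250 bases before the start site of each gene, from RefSeq on GRCm38.p6, were searched on both strands for the ER stress elements ERSE (CCAAT, 9 bases of any kind, then CCACG) and ERSE-II (ATTGG, 1 base of any kind, then CCACG), the XBP1-type element UPRE (TGACGTGG) and the composite site of ATF4 with a C/EBP partner (TGATGNAAN). ERSE, ERSE-II and UPRE share the letters CCACG, in UPRE on the opposite strand, and no matches overlapped among the 10 genes. ERSE was found for 2 of the 10 genes, Hspa5 and Dnajc3, and for 0.130% of 27025 genes in the table. ERSE-II was found for 1, Herpud1, against 0.0370% of all genes. The composite site was found for 2, Asns and Herpud1, against 3.89% of all genes, and UPRE for 0 of the 10, against 0.603%. No match was found in these windows for Ddit3, Atf4, Trib3, Sdf2l1, Pdia4 or Xbp1. The 120 bases before the start of the 4 matching genes are shown, 5′ to 3′ along the gene, since they hold every match. Capitals mark the fixed letters of each match.
Hspa5, plus strand of chr2:34771970-34772089: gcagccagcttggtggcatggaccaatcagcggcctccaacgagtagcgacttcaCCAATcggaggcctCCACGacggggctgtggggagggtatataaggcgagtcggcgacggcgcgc
Dnajc3, plus strand of chr14:118937812-118937931: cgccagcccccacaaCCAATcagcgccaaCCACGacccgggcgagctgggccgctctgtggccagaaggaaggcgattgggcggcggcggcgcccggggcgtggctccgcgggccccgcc
Herpud1, plus strand of chr8:94386309-94386428: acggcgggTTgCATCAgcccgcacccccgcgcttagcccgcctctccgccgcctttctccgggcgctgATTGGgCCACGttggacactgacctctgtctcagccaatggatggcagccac
Asns, minus strand of chr6:7693210-7693329: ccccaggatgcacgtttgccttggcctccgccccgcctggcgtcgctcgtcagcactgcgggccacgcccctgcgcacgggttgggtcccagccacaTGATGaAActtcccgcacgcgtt
The Hspa5 match lies at -65 to -47 and the Dnajc3 match at -105 to -87, counted from the start site. In Herpud1 the composite site, on the opposite strand, lies at -113 to -105 and ERSE-II at -52 to -42. In Asns the composite site lies at -23 to -15. A match is a description of letters and not evidence of binding in these livers.

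All 10 genes were measured above the floor in at least 50 of the 52 arrays, and their levels in treated and saline livers were close. Signals of different probe sets carry no order of abundance between genes. Hspa5, which codes for the main ER chaperone BiP, had a median log2 signal of 11.94 in the 32 treated arrays and 12.06 in the 16 saline arrays. Xbp1, the transcription factor spliced by IRE1, had medians of 11.53 in treated and 11.64 in saline arrays, and Herpud1, a membrane protein of ER-associated degradation, had 11.02 in treated and 10.93 in saline arrays. Dnajc3, a co-chaperone of BiP, had medians of 9.71 in treated and 9.54 in saline arrays. Pdia4, a disulfide isomerase, had 9.41 in treated and 9.39 in saline arrays, and Sdf2l1, a luminal partner of BiP complexes, had 8.39 in treated and 8.27 in saline arrays. In the ATF4 group, Atf4 itself had medians of 9.24 in treated and 9.28 in saline arrays. Asns, the enzyme that makes asparagine, had 7.33 in treated and 7.16 in saline arrays, and Trib3, a pseudokinase that curbs ATF4 signalling, had 6.83 in treated and 7.09 in saline arrays. Ddit3, which codes for the stress transcription factor CHOP, was the nearest to the floor, with medians of 6.11 in treated and 6.17 in saline arrays, and it was at the floor in 2 arrays, the olive oil array and the DPN saline control, both of 4 h. For all 10 genes the ranges of treated and saline arrays overlapped.

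**Figure D1:**
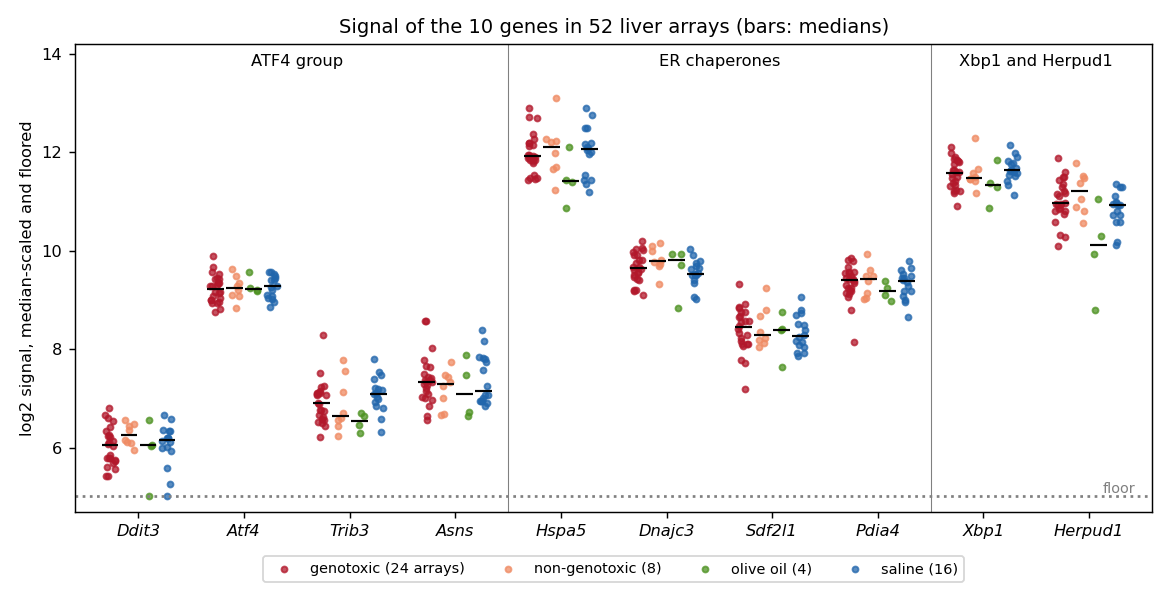
Log2 signal (y axis) of the 10 genes (x axis) in the 24 genotoxic, 8 non-genotoxic, 4 olive oil and 16 saline arrays; each point is an array of 1 pool, bars are medians, and the dotted line is the floor at 5.02. Treated and saline arrays overlap for every gene, and the olive oil arrays reach lower for Herpud1, down to 8.80.

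The saline arrays show how far these genes vary without a chemical. Around the mean of their time, their SD was 0.49 for Hspa5, 0.46 for Asns, 0.41 for Ddit3, 0.39 for Herpud1 and 0.37 for Trib3 (log2 units, 16 arrays, 12 degrees of freedom). It was 0.34 for Sdf2l1, 0.28 for Pdia4, 0.23 for Xbp1, 0.20 for Dnajc3 and 0.18 for Atf4. Hspa5 differed between the control sets. The DMN control had the highest Hspa5 of the 4 saline arrays at all 4 times, with 12.50, 12.75, 12.49 and 12.89 at 4 h, 20 h, 14 days and 28 days, and the other 12 saline arrays lay between 11.20 and 12.20. The DMN-treated livers had 12.71, 12.90, 12.20 and 12.72 at the same times, so both the treated and the control arrays of this set were high. Sdf2l1 did so in part, with the DMN control the highest saline array at 3 of 4 times. The saline control of the EtOH and PB set had the lowest Hspa5 of the saline arrays at 3 of 4 times, with 11.44, 11.54, 11.35 and 11.97, and the label of its 20 h array is in doubt, as given with the EtOH array of 20 h. Values against the mean saline level therefore carry these set differences, and the ratio to the own control is given beside them.

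By its brightest probe set, no gene of the set was called against its vehicle in any chemical at any time. Of 320 values (10 genes, 8 chemicals, 4 times), 0 passed an adjusted p under 0.05 in limma, and 18 (5.63%) had an unadjusted p under 0.05. Among all 18349 probe sets, the shares called at 4 h were 0.583% with ENU, 0.332% with DMN, 1.23% with DPN, 0.229% with AAT, 0.0545% with DMBA, 0.191% with DBP, 0.142% with EtOH and 0.163% with PB. At 20 h they were 0.283%, 0.272%, 1.28%, 0.676%, 0.120%, 0.240%, 17.2% and 0.0654% in the same order of chemicals. At 14 days they were 0.125%, 0.550%, 0.163%, 0.518%, 0.534%, 0.583%, 0.142% and 0.327%. At 28 days they were 0.207%, 0.104%, 0.245%, 0.0872%, 0.131%, 0.0872%, 0.163% and 0.490%. The EtOH array of 20 h thus stood far above the rest, and 0 of the 10 genes were among its calls by their brightest probe sets. Over all probe sets, the median share with an unadjusted p under 0.05 was 5.29%. The count for the 10 genes was thus near the background. The standard errors for these genes ran from 0.20 to 0.65 on the log2 scale, with a median of 0.40. A difference of 1 log2 unit could thus be missed even at the median, and larger ones in the more variable members. Herpud1 with DBP at 14 days, 2.17 above olive oil, was not called. The smallest adjusted p was 0.0648, for Xbp1 with EtOH at 20 h.

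**Figure D2:**
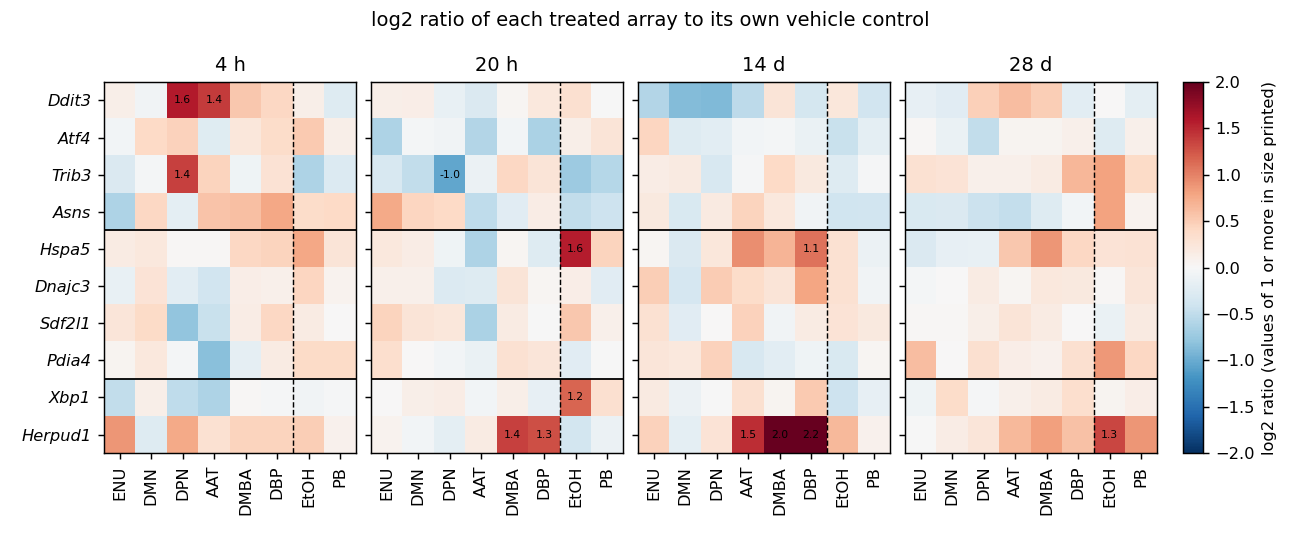
Log2 ratio of each treated array to its own vehicle control, for the 10 genes (rows: ATF4 group, ER chaperones, then Xbp1 and Herpud1) and 8 chemicals (columns) at 4 times (panels); red is higher and blue lower in the treated array, and ratios of 1 or more in size are printed. The large positive ratios at 4 h are those of Ddit3 with DPN and AAT and of Trib3 with DPN. At 20 h they are those of Herpud1 with DMBA and DBP and of Hspa5 and Xbp1 with EtOH. At 14 days they are those of Herpud1 with the aromatic mutagens and of Hspa5 with DBP. At 28 days it is that of Herpud1 with EtOH. The large negative ratio is that of Trib3 with DPN at 20 h.

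In the livers with DPN and AAT at 4 h, the ATF4 group stood furthest above the chaperones. The mean log2 ratio to the own control over the 4 genes of the ATF4 group was at least 0.80 with DPN at 4 h, against -0.26 over the 4 chaperones, a difference of at least 1.06. With AAT at 4 h the means were at least 0.55 and -0.41, a difference of at least 0.96. These are lower bounds, as are those of DMBA and DBP at 4 h, since Ddit3 was at the floor in the controls. In the other 30 treated arrays the difference lay between -0.70 and 0.19, with a median of -0.17. The upper end, 0.19, was that of DMBA at 4 h and is itself such a lower bound. The lowest was that of EtOH at 20 h, whose control is in doubt: it was -0.44 with the arrays labelled PB and saline exchanged, when PB at 20 h had 0.26, and 0.10 with the median over probe sets of a gene. Against the mean saline level DMN at 14 days had -0.75, while the SD of the same difference between a pair of saline arrays of 1 time was 0.50. These are descriptions with no test, since the genes were chosen as a set.

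**Figure D3:**
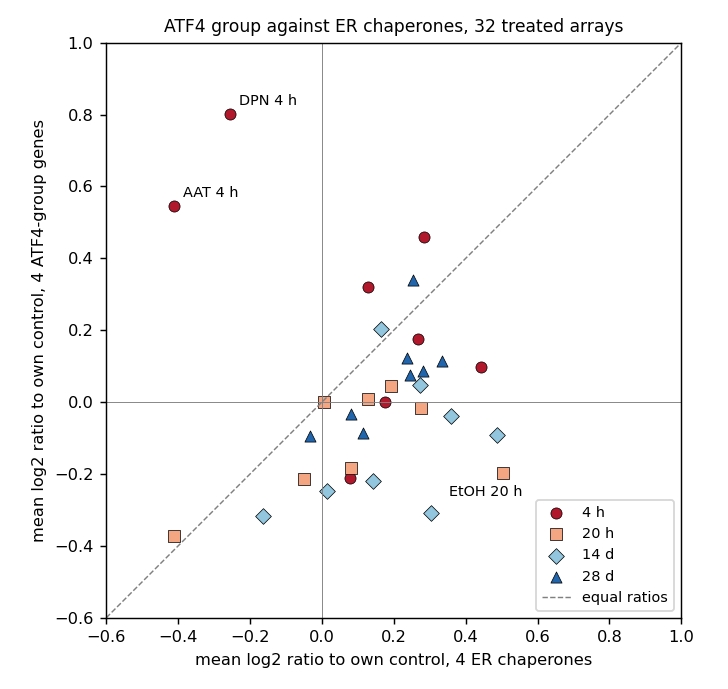
Mean log2 ratio to the own control over the 4 ATF4-group genes (y axis) and over the 4 ER chaperones (x axis) in the 32 treated arrays, with the time as symbol and colour and the dashed line at equal ratios. DPN (at least 0.80, and -0.26) and AAT (at least 0.55, and -0.41) of 4 h, over controls with Ddit3 at the floor, stand apart at the upper left, and the other arrays lie near or below the line.

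Ddit3 had the largest ratio in both livers, over controls at the floor. At 4 h, Ddit3 had a log2 signal of 6.61 with DPN, 6.42 with AAT, 6.25 with ENU, 6.13 with DMN, 5.56 with DMBA and 5.43 with DBP, and 6.48 with EtOH and 6.10 with PB. The 4 saline arrays had 6.14 (ENU set), 6.21 (DMN set), 5.02, at the floor (DPN set), and 6.36 (EtOH and PB set), and the olive oil array was at the floor. DPN was above all 4 saline arrays by little, and AAT above the olive oil array by much. The ratio to the own control was at least 1.58 with DPN and at least 1.40 with AAT. Against the mean saline level the Ddit3 difference was 0.67 ± 0.43 with DPN (SE, limma, adjusted p = 0.712), and 0.37 (adjusted p = 0.794) without the DPN control. For AAT it was 1.40 ± 0.55 over olive oil (adjusted p = 0.879) and 0.49 ± 0.43 over saline (adjusted p = 0.827). Without the DPN control the AAT difference over saline was 0.19 ± 0.28 (adjusted p = 0.952).

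At 4 h Trib3 stood high with DPN alone. Its log2 signal at 4 h was 8.28 with DPN, the highest Trib3 signal of the 52 arrays, and between 6.22 and 7.15 with the other 5 genotoxic chemicals. It was 6.23 with EtOH and 6.57 with PB. The saline arrays had 7.40 (ENU set), 7.19 (DMN set), 6.92 (DPN set) and 6.85 (EtOH and PB set), and olive oil had 6.31, so only the DPN array lay above the saline range. The ratio of DPN to its own control was 1.36, and the Trib3 difference from the mean saline level was 1.19 ± 0.40 (SE, limma, adjusted p = 0.248). The dimmer probe set of Trib3 had the sign of the brightest in 17 of 32 ratios.

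Atf4 and Asns differed less. Atf4 had 9.90 with DPN at 4 h, its highest signal of the 52 arrays, against 9.40, 9.26, 9.45 and 8.96 in the saline arrays of the ENU, DMN, DPN and EtOH and PB sets. That difference was 0.63 ± 0.20 over the mean saline level (limma, adjusted p = 0.199) and 0.45 over the own control. With AAT, Atf4 had 8.95, against 9.19 in olive oil. Asns at 4 h had 7.65 with DPN and 7.30 with AAT, against 7.84 in the DPN control and 6.73 in olive oil, so its own-control ratio was -0.19 with DPN and 0.58 with AAT. The other 3 saline arrays had 8.39, 6.92 and 7.08, and the treated arrays of 4 h lay within that range. At 20 h the highest Asns signals of all arrays were 8.58 with ENU and 8.57 with DPN, against 7.82 and 8.16 in their own controls (adjusted p = 0.933 and 0.596 over the mean saline level). The dimmer Asns probe set, which read the floor on 47 of 52 arrays, was called higher in the same livers, with ENU (adjusted p = 0.00282) and with DPN (0.90, adjusted p = 0.0436). Its saline arrays of 20 h had 5.02 to 5.11, and controls at or near the floor give little spread of their own.

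**Figure D4:**
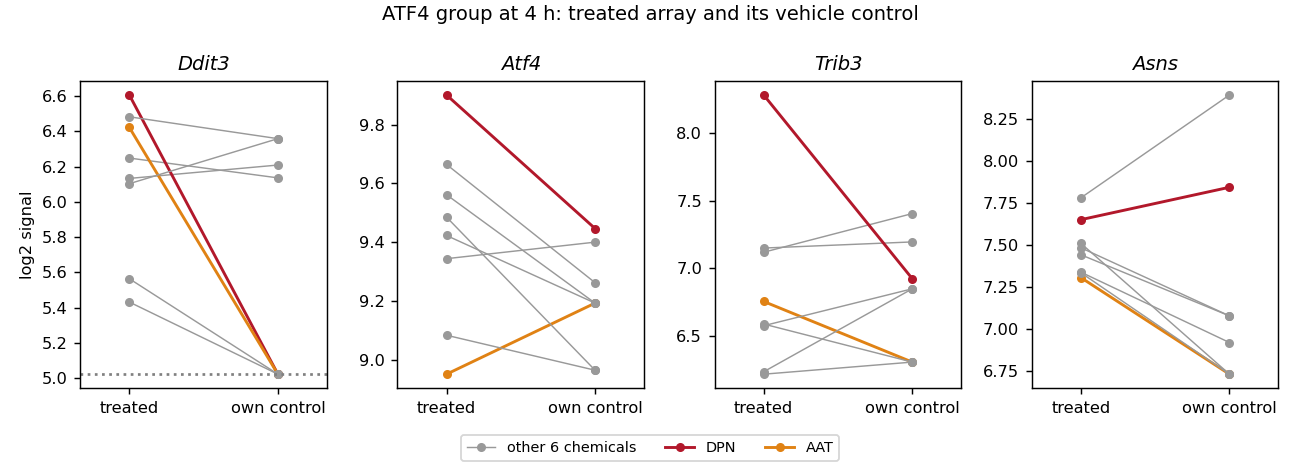
Log2 signal (y axis) of the 4 ATF4-group genes at 4 h in each treated array (left) and in its own vehicle control (right), joined by lines; AAT, DMBA and DBP share the olive oil array, and EtOH and PB share a saline array. Ddit3 reads 5.02, the floor, in the controls of both DPN and AAT, and Trib3 is highest, at 8.28, with DPN.

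The median over the 8 chemicals of the ATF4-group mean ratio was at least 0.25 at 4 h, -0.10 at 20 h, -0.15 at 14 days and 0.08 at 28 days. At 14 days the own-control ratio of Ddit3 was -0.89 with DPN, -0.87 with DMN, -0.59 with ENU, -0.52 with AAT and -0.35 with DBP, and 0.25 with DMBA. Its class value in the fit of the 6 genotoxic chemicals, with the control set as a block, was -0.59 ± 0.22 (SE, limma, adjusted p = 0.4). At 20 h Trib3 had its lowest ratio of all arrays with DPN, -1.04, in the chemical that had the highest at 4 h (adjusted p = 0.583 over the mean saline level). At 28 days the Trib3 ratio was above 0 in all 8 treated arrays, between 0.09 and 0.81, over 5 control arrays, and the adjusted p (limma) was 0.852 for the genotoxic and 0.346 for the non-genotoxic class. The dimmer Trib3 probe set had class values of 0.02 and -0.14 there. Olive oil had 6.46 for Trib3, and the saline arrays ran from 6.32, in the control of EtOH and PB, to 7.21.

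The 4 chaperones had positive median ratios. Over the 32 treated arrays the median own-control ratio was 0.22 for Hspa5, 0.10 for Dnajc3, 0.16 for Sdf2l1 and 0.11 for Pdia4. Hspa5 had a ratio above 0 in 8 of 8 treated arrays at 4 h, with a range of 0.02 to 0.78. Its controls were low there in olive oil (11.43) and in the EtOH and PB set (11.44, the lowest saline array of 4 h). The mean Hspa5 signal at 4 h was 12.03 in the genotoxic and 11.96 in the non-genotoxic arrays, against 12.02 in the saline arrays. Pdia4 had a ratio above 0 in 8 of 8 treated arrays at 28 days, with a range of 0.00 to 0.87. Its dimmer probe set went the other way there, with class values of -0.16 (genotoxic) and -0.86 (non-genotoxic). The 8 ratios of a time share 5 controls.

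The lowest Pdia4 and Sdf2l1 signals came with AAT at 4 h. At 4 h Pdia4 had 8.15 with AAT, its lowest signal of the 52 arrays, against 8.98 in olive oil and 9.49, 9.18, 9.28 and 8.65 in the saline arrays. The Pdia4 difference was -0.84 ± 0.38 over olive oil (limma, adjusted p = 0.992). Over the saline mean its adjusted p was 0.237. These are values of the brightest Pdia4 probe set, whose sign the dimmer one shared in only 11 of 32 ratios. Sdf2l1 had 7.20 with AAT at 4 h, also its lowest of the 52 arrays, against 7.64 in olive oil, and 7.72 with DPN, against 8.51 in the DPN control. Sdf2l1 with AAT was -0.98 ± 0.36 over the saline mean (adjusted p = 0.393). At 20 h AAT again had negative ratios, -0.62 for Hspa5 (the lowest of all 32), -0.64 for Sdf2l1 and -0.26 for Dnajc3. In that array 7 hepatocyte markers summed to 43736 signal units, the lowest of the 52 arrays, against 52764 in olive oil. Markers of pancreatic acinar cells, a secretory cell type with much ER, summed to 1219 with AAT at 20 h, against 1638 in olive oil. Their mean log2 signal was 6.09 with AAT and 6.28 in olive oil, with 4 of 12 at the floor with AAT. The part of either list in the chaperone values was not tested.

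At 14 days Hspa5 had its higher ratios with the aromatic mutagens, over a low control. Hspa5 had 11.79 with AAT, 11.54 with DMBA and 11.94 with DBP, against 10.86 in olive oil, the lowest Hspa5 signal of the 52 arrays. Saline arrays of that time had 11.44 (ENU set), 12.49 (DMN set), 11.20 (DPN set) and 11.35 (EtOH and PB set). All 3 treated arrays lay below the DMN control, which was high at every time, and above the other saline arrays. Dnajc3 with DBP had 9.63, against 8.84 in olive oil, a difference of 0.79 ± 0.28 (limma, adjusted p = 0.444). The olive oil array of 14 days was also the lowest of the 52 for Dnajc3, Xbp1 (10.86) and Herpud1.

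Herpud1 gave the largest ratios of the set, over a low control. At 14 days Herpud1 had 10.28 with AAT, 10.81 with DMBA and 10.97 with DBP, against 8.80 in olive oil. The saline arrays of that time had 10.12 (ENU set), 11.35 (DMN set), 10.58 (DPN set) and 10.82 (EtOH and PB set), and the 3 treated arrays lay among them. Over olive oil the Herpud1 differences were 1.48, 2.01 and 2.17 (SE 0.52 each, limma, adjusted p = 0.521, 0.175 and 0.110). Over the mean saline level they were -0.43, 0.09 and 0.26. The olive oil array itself was -1.91 ± 0.41 from the saline mean at 14 days (adjusted p = 0.0546), with 0.594% of all probe sets called in that comparison.

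Controls of Herpud1 were also low at 20 h (olive oil) and at 28 days (olive oil and the saline array of the EtOH and PB set). At 20 h Herpud1 had 11.30 with DMBA and 11.21 with DBP, against 9.93 in olive oil. Both signals also lay above all 4 saline arrays of that time, unlike those of 14 days. AAT, at 10.09, stayed near olive oil and below all 4 saline arrays, of which the lowest had 10.72. At 28 days Herpud1 had 10.94 with AAT, 11.12 with DMBA and 10.88 with DBP, against 10.30 in olive oil. At the same time it had 11.51 with EtOH and 11.06 with PB, against 10.17 in their own control, and the other saline arrays had 10.97, 11.30 and 10.93. The non-genotoxic class value at 28 days was 1.11 ± 0.25 (SE, limma, adjusted p = 0.106) with the control set as a block. It was 0.55 (adjusted p = 0.648) without it. In the same 2 arrays the plasma and B cell markers summed to 2116 signal units with EtOH and 2072 with PB, against 1285 to 1774 in the saline arrays, over 8 measured genes, of which 3 and 2 were at the floor. Sdc1, the brightest of the 8, weighs most in such a sum. The mean log2 signal of the 8 was 6.30 with EtOH and 6.26 with PB, against 6.14 to 6.29 in the saline arrays. Pdia4 was on the same side in those livers, at 0.64 ± 0.22 for the class (adjusted p = 0.238), while its dimmer probe set was at -0.86 ± 0.26 (adjusted p = 0.185). The part of these markers was not tested. As deposited, the PB array of 28 days had the lowest median of all 52, 17.9, with the next at 40.5, and without scaling the class value of Pdia4 was -0.19. Its hepatocyte markers summed to 90502, the highest of all arrays. The antibody joining chain gene Jchain was at 5.17 with EtOH and 5.20 with PB, near the floor, and Sdc1, which hepatocytes also express, had 10.69 with EtOH and 10.63 with PB, against 9.64 to 10.20 in the saline arrays. At 4 h the Herpud1 ratio was 0.89 with ENU, 0.76 with DPN, 0.45 with DBP, 0.44 with DMBA, 0.30 with AAT, -0.26 with DMN, 0.49 with EtOH and 0.08 with PB. The genotoxic class value was 0.44 ± 0.17 (adjusted p = 0.491). The dimmer Herpud1 probe set had the sign of the brightest in 29 of 32 ratios, with a correlation of 0.90 over the 32.

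**Figure D5:**
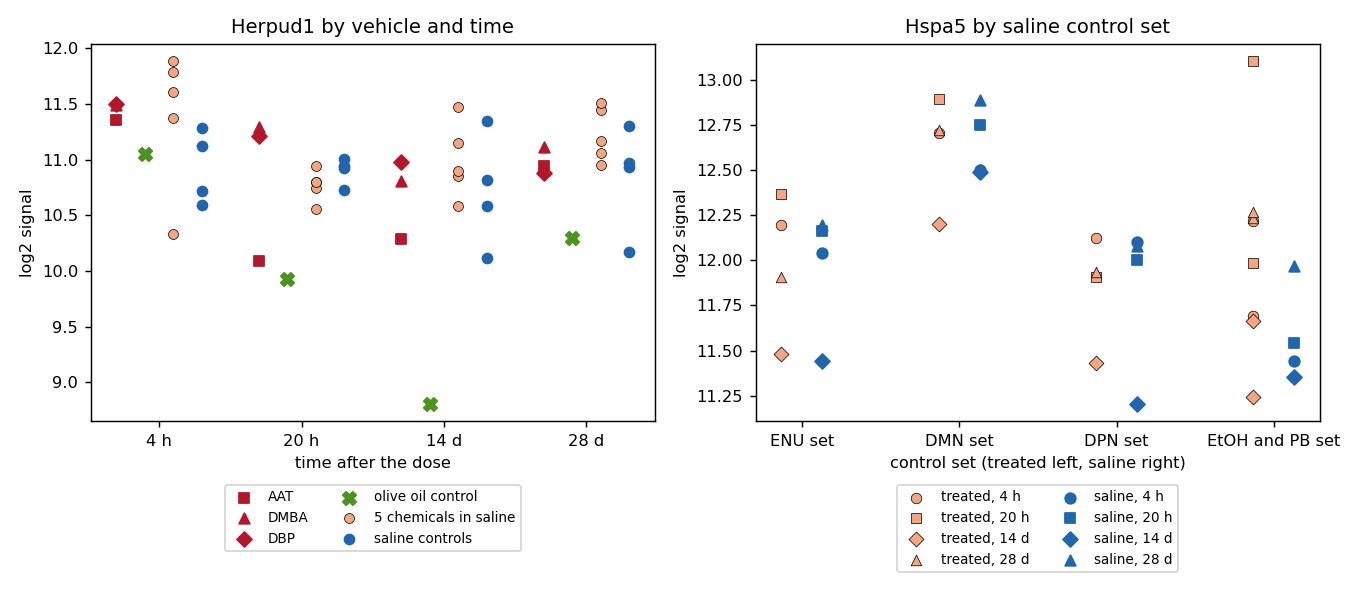
Left, log2 signal of Herpud1 (y axis) by time (x axis) in the aromatic mutagens, their olive oil control, the 5 chemicals given in saline and the saline controls; the olive oil array reads 8.80 at 14 days, below every other array. Right, log2 signal of Hspa5 by saline control set, treated arrays to the left and saline arrays to the right of each set, with the time as symbol; the 4 DMN controls (12.49 to 12.89) lie above the other 12 saline arrays (11.20 to 12.20).

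Xbp1 had its lower ratios at 4 h, when it was at -0.62 with AAT, -0.52 with DPN and -0.49 with ENU over the own controls, and between -0.07 and 0.11 with the other 5 chemicals. Splicing, by which IRE1 activates Xbp1, was not measured here. The Xbp1 signals were 11.22 with AAT, 11.64 with DPN and 11.34 with ENU, against 11.84 in olive oil and 11.83, 11.99, 12.15 and 11.53 in the saline arrays. For ENU the Xbp1 difference over the saline mean was -0.54 ± 0.25 (limma, adjusted p = 0.512). For AAT it was -0.62 ± 0.31 over olive oil (adjusted p = 1) and -0.66 ± 0.25 over saline (adjusted p = 0.417).

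The EtOH array of 20 h had the highest Hspa5 and Xbp1, and it stood apart as an array. Its log2 ratios of 3′ to 5′ control signal were 3.13 for Gapdh and 3.79 for actin, against at most 0.34 and 1.28 in the other 51 arrays. Hspa5 had 13.11, against 11.54 in the own control and 11.54 to 12.75 in the 4 saline arrays, and Xbp1 had 12.29, against 11.14 in the own control and 11.14 to 11.79 in the 4 saline arrays. The Hspa5 difference from the saline mean was 0.99 ± 0.51 (adjusted p = 0.216) and that of Xbp1 0.70 ± 0.25 (adjusted p = 0.0648). Probe sets of 1 gene split in this array. The own-control ratio of Hspa5 was 1.56 and 0.27 by its 2 probe sets. That of Xbp1 was 1.16, 0.39, 0.17 and -0.52, and those of Dnajc3 ran from -2.46 to 0.13. A dimmer probe set was called for each of Atf4 (1.66, adjusted p = 0.00363), Herpud1 (-1.40, adjusted p = 0.00988), Dnajc3 (-2.13, adjusted p = 0.011) and Xbp1 (-0.72, adjusted p = 0.0476). The part of the 3′ to 5′ ratio in these values was not tested. The own control of this array carries a doubt of its own: Cyp2b10, a gene that phenobarbital induces in liver, had 8.25 in the PB array of 20 h, against 11.48 in the array labelled saline of that set and 6.80 to 7.26 in the other saline arrays of that time. Whether the labels of these 2 arrays are exchanged was not settled, and every EtOH and PB value of 20 h over the own control rests on them. The array labelled PB had 11.99 for Hspa5 and 11.45 for Xbp1. With the 2 arrays exchanged, an alternative added after the data were seen, the EtOH ratio at 20 h was 1.12 for Hspa5 and 0.84 for Xbp1, and the PB ratio of Hspa5 was -0.45 in place of 0.45. The Xbp1 difference of EtOH from the saline mean was then 0.62 and passed the test (adjusted p = 0.0474). With the array labelled saline left out, the Xbp1 difference was 0.55 (adjusted p = 0.0307), and without the saline control of the DMN set that of Hspa5 had an adjusted p of 0.0224.

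No gene of the set was called for either class. In the fits by class, 0 of 130 values (10 genes, 13 comparisons) were called by limma and 9 had an unadjusted p under 0.05. For the genotoxic class, 0% of all probe sets were called at each time, so no gene of any kind was called. For the non-genotoxic class 0.136%, 0.153%, 0.120% and 1.02% were called at 4 h, 20 h, 14 days and 28 days. For the difference between the classes 0.104%, 0.114%, 0.0599% and 0.518% were called. The genotoxic class at 4 h, with Ddit3 at the floor in the controls of 4 of its 6 chemicals, gave 0.62 ± 0.30 for Ddit3 (adjusted p = 0.544) and 0.30 ± 0.25 for Trib3 (adjusted p = 0.713). Set against the mean of the later times, the genotoxic class of 4 h differed by 0.77 ± 0.27 for Ddit3 (adjusted p = 0.522), 0.37 ± 0.16 for Atf4 (adjusted p = 0.703) and -0.36 ± 0.16 for Xbp1 (adjusted p = 0.712), with 0.00545% of all probe sets called. The genotoxic minus non-genotoxic difference of Ddit3 at 4 h was 0.69 ± 0.64 (adjusted p = 1).

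Other genes of the pathway were called in few livers. In the list of further ATF4 and CHOP targets, 2 of 15 measured genes rose with DPN at 4 h and 0 fell, where 1.23% of all probe sets were called. Atf3, a stress transcription factor, had 7.48 with DPN at 4 h, at the floor in its own control and at most 5.34 in the saline arrays (2.34 ± 0.13, adjusted p = 8.21e-08). Gadd45a, a growth arrest gene, had 7.42 with DPN, against 5.59 in its own control and the floor in the other 3 saline arrays (2.25 ± 0.25, adjusted p = 0.00018). Both are also known targets of p53, and without the floor neither call held (adjusted p = 0.133 and 0.615). Over the saline mean Atf3 also rose with DMN at 4 h (0.68, adjusted p = 0.0409), with a log2 signal of 5.82, near those of DBP (5.89) and AAT (5.81), against 5.25 in olive oil. In the same DPN array 0 of 11 stress sensor genes, 0 of 20 amino acid genes, 0 of 11 aminoacyl-tRNA synthetases and 0 of 38 ER folding and degradation genes were called.

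Over the own vehicle and apart from EtOH at 20 h, 3 of the 20 amino acid genes and 2 of the 38 ER genes were called in any comparison. Of all probe sets, 0.0545% to 1.28% were called per comparison, the most with DPN at 20 h. The median share over the 32 comparisons, EtOH at 20 h included, was 0.23%. Whether the gene counts exceed these shares was not tested. Slc3a2, the heavy chain of amino acid exchangers, rose with DPN at 20 h (9.68, against 8.44 to 8.67 in the saline arrays, adjusted p = 0.00286). Slc7a5, its light-chain partner, was at the floor in 42 of 52 arrays, every control of 20 h, 14 days and 28 days among them. It passed the test with DBP at 14 days (at least 1.12 higher, adjusted p = 0.00533), DMN at 28 days (at least 1.21, adjusted p = 0.0025) and EtOH at 28 days (at least 0.87, adjusted p = 0.0131), but controls at the floor give no spread of their own. Phgdh, the entry enzyme of serine synthesis, fell with DPN at 28 days (6.67, against 8.66 to 9.01, adjusted p = 0.00158), but not in the median over all its probe sets (0.35). Of the ER list, Sil1, the exchange factor of BiP, fell with DPN at 20 h (5.75, against 7.30 to 7.73, adjusted p = 0.00787). Derl3, of the ER degradation channel, fell in the same array (5.25, against 6.86 to 7.74, adjusted p = 0.0379). In that array the pancreatic acinar markers summed to 1518, against 2252 to 2421 in the saline arrays, with 2 of 12 at the floor and a mean log2 signal of 6.29, against 6.29 to 6.70. The brightest of the 12 was Cela1, with a median log2 signal of 10.30 over all arrays, and it weighs most in the sum. Ctrb1, picked from the 12 after its value was seen, was at the floor, against 6.97 to 7.42 in the saline arrays. The part of these markers in Derl3 and Sil1 was not tested. In the EtOH array of 20 h, where 17.2% of all probe sets were called, 8 of 38 ER folding genes rose and 3 fell, led by Pdia3 (-2.10, adjusted p = 0.000136) and Hyou1 (1.25, adjusted p = 0.00193). There 1 of 20 amino acid genes, Slc38a1 (1.30), rose and 4 fell, led by Got1 (-2.16) and Gpt2 (-1.46). Of the ATF4 and CHOP targets Eif4ebp1 (1.15) and Bbc3 (0.65) rose, and of the stress sensors Creb3l3 (0.76) rose and Eif2ak1 fell (-1.27). Of the synthetases Cars (-1.13) and Sars (-0.91) fell.

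Across the 32 treated arrays the ratios of the chaperones had a higher median correlation with each other than those of the ATF4 group. The median Pearson correlation of own-control ratios was 0.35 over the 6 pairs of chaperones (range -0.20 to 0.54) and 0.10 over the 6 pairs of the ATF4 group (0.01 to 0.33). Between the groups it was 0.10 over 16 pairs (-0.54 to 0.39). Without the EtOH array of 20 h the medians were 0.32, 0.11 and 0.07. These are descriptions, since ratios share control arrays. Ratios of 10745 genes outside the set were compared with each group mean over the 32 arrays. Those most like the chaperone mean were Serpina10 (0.81), Sec61a1 (0.78), Mbl1 (0.78), Osbpl9 (0.77) and Tspan4 (0.76). Sec61a1 is a subunit of the channel through which proteins enter the ER. Those most like the ATF4-group mean were Tmem94 (0.65), Ctrc (0.62), Ppp1r15a (0.61), Atf3 (0.61) and Kctd17 (0.59). Members of the ATF4 group correlated with the mean of its other members at only 0.09 to 0.30, and chaperones with theirs at -0.004 to 0.65. The genes named are the highest of many correlations, and whether they exceed chance was not tested. Ppp1r15a codes for the phosphatase subunit GADD34, which reverses the PERK step, and Atf3 sat at the floor in 32 of 52 arrays.

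Probe sets of 1 gene agreed to different degrees. Over the 32 ratios, the correlation with the brightest probe set was 0.75 for the dimmer probe set of Hspa5, and 0.74, 0.39 and 0.20 for those of Xbp1. It ran from 0.27 to 0.65 for those of Dnajc3, and was 0.52 for that of Trib3 and 0.41 for that of Atf4. It was -0.31 for the dimmer probe set of Pdia4, with 7 of 52 arrays at the floor.

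Hepatocyte markers were bright in every array, with Alb at 13.07 to 14.07 and Ttr at 13.02 to 14.28. In whole liver, fewer cells of a type and less RNA per cell cannot be told apart.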

How the data were processed

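The authors deposited 1 value per probe set and array as linear signal intensity, for 22690 probe sets on 52 arrays (unused sample columns: 0). How these were computed and scaled is not stated in the methods or labels read. After removal of 64 Affymetrix control probe sets, arrays were brought to a common median (their medians ran from 17.9 to 205), values under the 30th percentile (a signal of 32.5) were raised to it, and log2 was taken. Of the rest, 18349 probe sets that exceeded this floor in 4 or more arrays were used. Depth cannot be read from such values, and precision is limited by the small number of arrays. The R package limma (version 3.58.1, R 4.3.3) fitted 1 coefficient per chemical and time with a trended prior variance, set against the saline mean or the olive oil array of the time (12 residual degrees of freedom), and a lone array was assumed to vary like the saline arrays. Classes were fitted per time with the control set as a fixed block (6 residual degrees of freedom), and 4 h against later times in 1 fit of all arrays (24). Calls are at a Benjamini-Hochberg adjusted p under 0.05 over all these probe sets. The fits were tested on simulated data. Correlations, promoters and plots used Python 3.11.15 with matplotlib 3.10.9. Promoters matched for 10 of 10 genes.

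The 10 genes and the pathway lists were chosen with earlier results of these data known. Named were the 10 genes, up to 4 called genes per pathway list with the largest differences, and the 5 genes most like each group. Slc3a2, Slc7a5, Cyp2b10, Sdc1, Jchain and Ctrb1 were named after their values were seen. Alternatives covered scaling, floor, filter, control, block, variance trend, probe set and leaving out arrays.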

Additional observations from a re-analysis of the deposited data

Results flagged for a closer look

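In 80 groups of 4 saline signals or 6 genotoxic own-control ratios, 3 held a value far from the others by a gap test that marks about 1 in 20 groups by chance. The Ddit3 signal of the DPN control at 4 h was at the floor, 5.02, against 6.14 to 6.36 in the other saline arrays of the time. The Atf4 ratio with ENU at 14 days was 0.43, against -0.26 to -0.05 with the other genotoxic chemicals. The Pdia4 ratio with AAT at 4 h was -0.84, against -0.18 to 0.21.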

How the results depend on the processing

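The count of genes called higher with single chemicals, 0, became 1 with only probe sets above the floor on all arrays (Xbp1 with EtOH at 20 h), with the own control array as the sole control (the same gene and array), with the median over all probe sets of a gene, and when arrays were left out in turn without the saline control of DMN (Hspa5 with EtOH at 20 h) or of EtOH and PB (Xbp1 there), where the count ran from 0 to 1. It was also 1 with the arrays labelled PB and saline of 20 h exchanged, an alternative added after the data were seen (Xbp1 with EtOH at 20 h, 0.62), which moved the ATF4-group minus chaperone difference of PB at 20 h to 0.26. Without PB, the non-genotoxic class had 2 genes called higher, Xbp1 at 20 h among them (1.16, adjusted p = 0.00856), and the difference between classes 2 called lower, and leaving out other chemicals gave 0. The ATF4-group minus chaperone difference moved to 0.10 for EtOH at 20 h with the median over probe sets, and to -0.67 and -0.75 for DMN at 20 h and 14 days against the mean saline level. Signs turned for Pdia4 in the non-genotoxic class at 28 days with values as deposited (-0.19), for Xbp1 with EtOH at 20 h (-0.43) and Phgdh with DPN at 28 days (0.35) with the median over probe sets, and for Herpud1 with AAT at 14 days over saline (-0.43), an alternative added after the data were seen. Without the control-set block, which is no pairing of numbered replicates, the number of called genes in the classes stayed 0. Of the further values of single genes under an alternative, 539 kept their direction and side of the threshold, 36 lost and 6 gained a call. Signals near the floor, as for Ddit3, Atf3, Gadd45a and Slc7a5, limit what can be said of them.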
